A study of Mus musculus with 6 samples.

Results

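Luminal and alveolar transcription factors are the DNA-binding proteins that set up and maintain the milk-secreting and hormone-sensing cells of the mammary gland. The 10 genes followed here were Elf5, Ehf, Elf3, Foxa1, Gata3, Stat5a, Stat5b, Grhl2, Tfap2c and Runx1, chosen by name. A probe was taken for a gene when its transcript accession belonged to that gene in RefSeq, which gave 14 probes for these 10 genes, out of 27235 probes for 20660 genes. All 14 probes were well above background on each of the 6 arrays, so both sides of each difference gave a signal. All 14 also passed the filter on low signal, which a probe passes when either population is bright enough. The probe of Elf5 (adult basal mean 5.10) and 1 probe of Ehf (5.24) passed it only through fetal cells, as its boundary was a log2 signal of 5.949. The size of the difference at these probes rests on dim adult basal signal.

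The 6 arrays held 3 samples of E18.5 fetal cells and 3 samples of adult basal cells, all from female C57Bl6J mice. Fetal cells were the EpCAM++CD49f+ cells of E18.5 glands, and adult basal cells were the EpCAM+CD49f+ cells of 8–12-wk glands, both after depletion of CD31, CD45 and Ter119 and, for the adult cells, also of BP-1. The fetal glands had a short digestion and the adult glands an overnight one. Digestion, the EpCAM gate of the sort, BP-1 depletion and developmental stage therefore cannot be told apart. Adult luminal cells were not among the samples. The number of animals behind a sample is not given in the sources used here.

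In the mammary gland, the ETS factor Elf5 and the prolactin-activated factors Stat5a and Stat5b drive the alveolar program of pregnancy, whereas Foxa1 and Gata3 act with the estrogen receptor in hormone-sensing luminal cells. Ehf and Elf3 are epithelium-restricted relatives of Elf5, Grhl2 maintains epithelial junction genes, Tfap2c is an AP-2 factor of the mammary epithelium, and Runx1 is a RUNX factor present in both luminal and basal lineages. Several of these genes are also expressed in other glandular epithelia and, for Runx1, in blood cells.

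RefSeq promoters are shown for 3 of the 4 genes called higher in fetal cells (Elf5, Elf3 and Foxa1), as the sequence before the starts of the genes on which the results turn. The table of RefSeq starts (GRCm38.p6) held 11 windows for 7 of the 10 genes, and none for Ehf, Grhl2 or Tfap2c. The 250 bases before each start are printed 5′ to 3′ along the gene, with capitals marking a match on either strand to any of 7 motifs. The motif of FOXA factors was searched as TGTTTAC, that of ETS factors as GGAAGT, that of GATA factors as AGATAA and that of STAT5 as TTCNNNGAA. The motif of GRHL factors was searched as AACCGG, that of AP-2 factors as GCCNNNGGC and that of RUNX factors as TGTGGT.
Elf5, first start (chr2:103411848-103412097, plus strand): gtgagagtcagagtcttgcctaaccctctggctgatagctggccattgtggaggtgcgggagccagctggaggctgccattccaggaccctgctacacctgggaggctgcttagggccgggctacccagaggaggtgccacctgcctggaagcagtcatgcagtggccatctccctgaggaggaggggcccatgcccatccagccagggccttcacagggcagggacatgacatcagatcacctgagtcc
Elf5, second start (chr2:103423818-103424067, plus strand): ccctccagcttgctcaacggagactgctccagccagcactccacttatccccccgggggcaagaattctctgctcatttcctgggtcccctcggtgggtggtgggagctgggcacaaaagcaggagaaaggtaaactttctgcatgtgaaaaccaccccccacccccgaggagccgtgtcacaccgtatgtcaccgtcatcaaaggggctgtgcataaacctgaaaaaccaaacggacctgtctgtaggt
Elf3 (chr1:135258473-135258722, minus strand): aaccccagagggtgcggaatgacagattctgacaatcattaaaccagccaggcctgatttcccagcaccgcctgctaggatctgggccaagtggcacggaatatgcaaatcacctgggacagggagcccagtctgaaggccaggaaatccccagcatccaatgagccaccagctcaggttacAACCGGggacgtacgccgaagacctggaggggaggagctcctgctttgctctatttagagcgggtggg
Foxa1 (chr12:57546112-57546361, minus strand): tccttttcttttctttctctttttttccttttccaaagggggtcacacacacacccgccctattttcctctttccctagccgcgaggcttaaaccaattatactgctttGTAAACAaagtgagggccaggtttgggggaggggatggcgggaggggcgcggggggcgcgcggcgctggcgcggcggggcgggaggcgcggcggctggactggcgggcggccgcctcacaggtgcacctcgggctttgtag
Neither Elf5 window held any of these letters. The Foxa1 window held 1 FOXA match, written GTAAACA on the printed strand and found in 3.17% of all 32851 windows of the same length. The Elf3 window held 1 GRHL match, found in 5.62% of all windows. Among the 11 windows of the listed genes, the ETS letters were in 2 (19.7% of all windows), the AP-2 letters in 2 (13.7%), and the GATA, STAT5 and RUNX letters in 0 (9.99%, 7.02% and 14.1% of all windows, respectively). These matches are letters in a window and describe no binding.

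The labelled populations were first checked against marker genes. Of 16 basal epithelial markers tested, 11 were called higher in adult basal cells and 0 higher in fetal cells in limma's test with Holm's adjustment. Of all genes tested, 5.21% and 6.03% were called in these directions. The less strict Benjamini-Hochberg adjustment gave 12 and 2 calls, against 13.9% and 15.8% of all genes. At an unadjusted p below 0.05 in limma's test, 13 were higher in adult basal and 2 in fetal cells. Ranked by that p, probe number 12541 of the 20448 tested had a value of 0.031, so most probes passed this limit. Counts at the unadjusted limit, here and below, are to be read beside that large share. Myh11, a smooth muscle myosin, had a log2 fold change of -8.63, the calponin Cnn1 -6.01, Tagln -4.87, Procr -4.85 and Acta2, smooth muscle actin, -4.07. All 16 were well above background in every sample, and their summed log2 signal was 17.37, 17.37 and 17.25 in fetal and 20.48, 20.48 and 20.43 in adult basal cells. Averaged over all 6 arrays, the brightest probe was that of Sparc, and in adult basal cells alone it was that of Acta2. Trp63, the p63 factor of basal cells, averaged 13.30 ± 0.11 (SD, n = 3) on the fetal and 13.38 ± 0.06 (SD, n = 3) on the adult arrays. It was not called with Holm's adjustment, nor were the basal keratin Krt14 (log2 fold change -1.20) and the Wnt-linked receptor Lgr5 (2.64). Of 16 luminal markers, 5 were called higher in fetal cells, led by the retinaldehyde dehydrogenase Aldh1a3 (log2 fold change 7.11), Wfdc18 (5.58), the receptor Kit (4.0) and Ly6d (4.0). In adult basal cells 0 were called higher. At an unadjusted p below 0.05 in limma's test, 9 luminal markers were higher in fetal and 5 in adult basal cells. Benjamini-Hochberg adjustment gave 7 calls of luminal markers towards fetal and 4 towards adult basal cells. The 4 were Krt23 (log2 fold change -1.65), Itgb3 (-1.56), Krt7 (-1.29) and Krt19 (-1.22). The simple epithelial keratins Krt8 (log2 fold change 0.44) and Krt18 (0.58) were bright in both populations and not called with either adjustment. The summed log2 signal of the luminal list was 18.18, 18.22 and 17.83 in fetal and 17.47, 17.59 and 17.42 in adult basal cells, Krt18 having the probe with the highest mean. As these were bulk samples, fewer cells of a type and less RNA per cell cannot be told apart.

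Against this setting, 4 of the 10 factors were called in the direction of E18.5 fetal cells and 1 in that of adult basal cells, where a call required at least a 2-fold difference and, in limma's test over all 20448 probes tested, a p no higher than 0.05 after Holm's adjustment. Elf5, Ehf, Elf3 and Foxa1 had the higher signal in fetal cells, and Stat5a in adult basal cells. Over all 15734 genes tested, each represented by its brightest probe, 6.03% were called in the fetal and 5.21% in the adult basal direction. Under the less strict Benjamini-Hochberg adjustment the counts were 4 and 3 of the 10, as Tfap2c and Runx1 joined Stat5a, against 15.8% and 13.9% of all genes and 29.7% in either direction. For 8 of the 10 genes the arrays of one population all lay above those of the other, 5 in the fetal direction (33.4% of all genes) and 3 in the adult basal direction (35.0%), compared with 68.4% of all genes in either direction. The median log2 fold change of the 10 genes was 0.32, with fetal over adult basal as the direction here and below, and that of all genes was -0.04. With 3 arrays in each population the smallest 2-sided p of an exact permutation test of a single gene is 0.1, and the calls therefore rest on the variance that limma shares between probes.

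**Figure D1:**
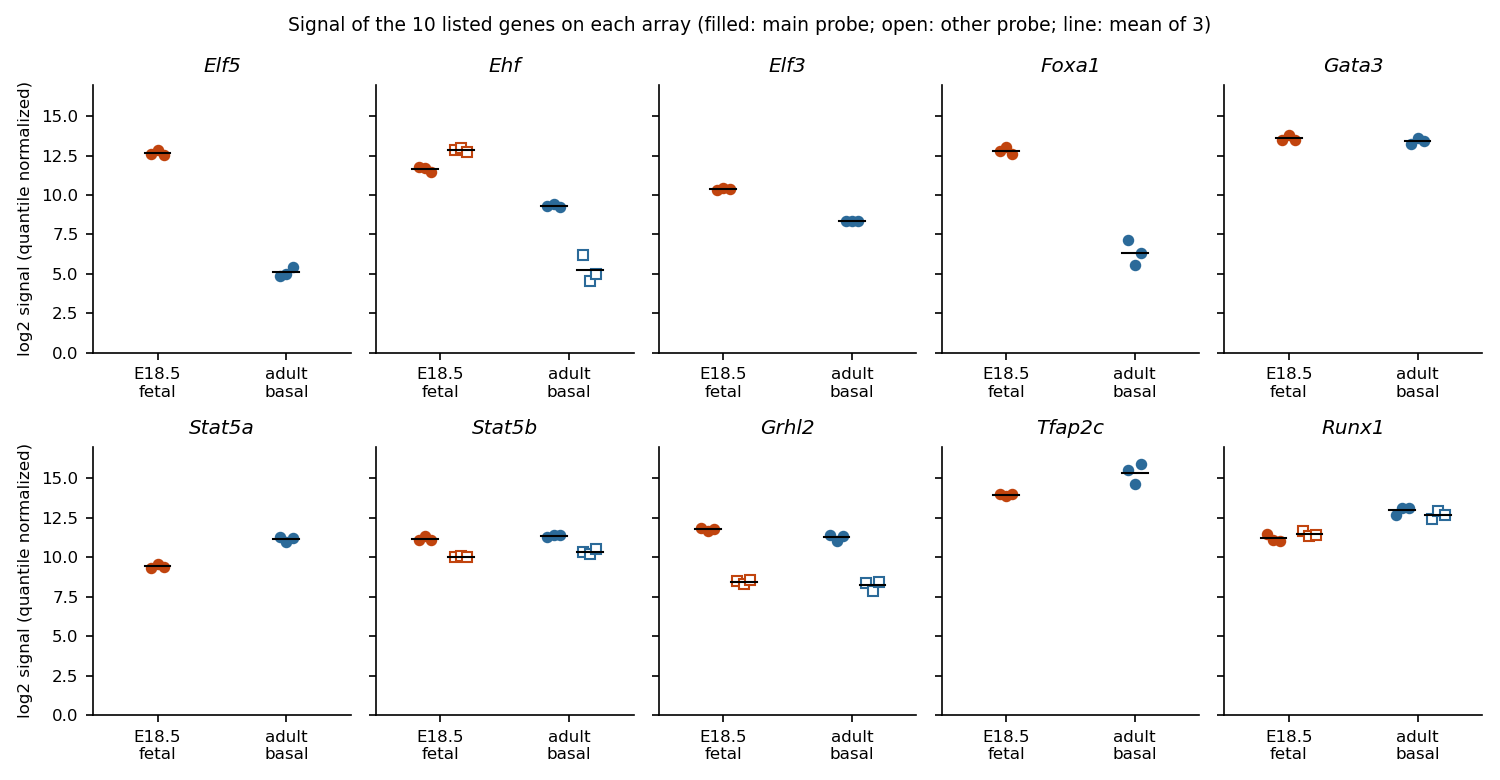
Quantile-normalized log2 signal (vertical axis) of the 10 listed genes on the 3 E18.5 fetal (red) and 3 adult basal (blue) arrays; filled circles are the probe with the highest mean, open squares the other probe where there was one, and lines the means of 3 arrays. The fetal and adult basal points are far apart for Elf5 and Foxa1 and overlap for Gata3.

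Among the ETS factors, Elf5, the alveolar regulator, had the largest difference of the main probes. Its log2 signal was 12.60, 12.82 and 12.53 in fetal cells and 4.88, 5.0 and 5.41 in adult basal cells. The lowest fetal array thus lay 7.12 log2 units above the highest adult basal array. The log2 fold change was 7.55 (SE 0.16, 95% interval 7.17 to 7.93, limma, Holm-adjusted p = 7.5e-06), or 188-fold, a size that rests on dim adult basal signal. The difference was 7.45 within the first slide and 7.68 within the second. Ranked by size of change, this probe was number 31 of the 20448 probes tested.

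Ehf, the closest relative of Elf5 among the listed genes, was measured by a pair of probes of the same transcript accession that gave differences of unequal size. The probe with the higher mean read 11.75, 11.69 and 11.47 in fetal and 9.31, 9.40 and 9.23 in adult basal cells, a log2 fold change of 2.32 (SE 0.11, limma, Holm-adjusted p = 0.0027). The other probe read 12.83, 12.96 and 12.74 in fetal and 6.17, 4.56 and 5.0 in adult basal cells, a log2 fold change of 7.60 (SE 0.37, Holm-adjusted p = 0.0025). Both probes separated the populations with no overlap and in the same direction, but the size of the Ehf difference, 4.99-fold or 194-fold, depended on the probe. Within each array, the second probe minus the first lay between 1.09 and 1.27 in fetal cells and between -4.84 and -3.14 in adult basal cells (exact permutation test, 2-sided p = 0.1, the smallest possible). Within the first and the second slide the first probe differed by 2.47 and 2.18. Which part of the transcript each probe covers was not analysed here. The Ehf call on the first probe was lost without fetal replicate 1 (limma, Holm-adjusted p = 0.052) and without fetal replicate 2 (0.058).

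Elf3, an ETS factor of simple and stratified epithelia, was also higher in fetal cells, by a smaller amount. Its log2 signal was 10.29, 10.45 and 10.39 in fetal cells and 8.34, 8.35 and 8.37 in adult basal cells. The 3 adult basal arrays agree within 0.02 (SD), and the populations did not overlap. The log2 fold change was 2.02 (SE 0.10, limma, Holm-adjusted p = 0.0019), a 4.06-fold difference, and the call was kept with each array left out in turn. Within the first and the second slide it was 1.93 and 2.07 on the log2 scale.

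Among the factors of hormone-sensing luminal cells, Foxa1 was called and Gata3 was not. Foxa1, a forkhead factor that opens chromatin for the estrogen receptor, read 12.77, 13.03 and 12.59 in fetal cells and 7.14, 5.53 and 6.33 in adult basal cells. The fetal arrays agree closely while the adult basal arrays spread over more than 1 log2 unit, and there was no overlap. The log2 fold change was 6.46 (SE 0.37, limma, Holm-adjusted p = 0.0073), or 88.2-fold. The difference was 6.04 among the arrays of the first slide and 7.28 among those of the second. Its call was lost without fetal replicate 1 (Holm-adjusted p = 0.14), 2 (0.10) or 3 (0.080) or adult basal replicate 3 (0.087), without the filter on low signal (0.082) and with a variance trend and robust estimation (0.10), although the log2 fold change stayed between 6.07 and 6.86 with each array left out.

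Gata3, the zinc-finger factor of luminal fate, was bright in both populations. Its log2 signal was 13.45, 13.80 and 13.50 in fetal cells and 13.26, 13.60 and 13.43 in adult basal cells. The arrays overlapped, and the log2 fold change was 0.15 with a 95% interval from -0.18 to 0.48 in limma's fit, so a 2-fold difference lies outside the interval. Within the slides it was 0.11 and 0.05.

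Of the STAT5 genes, which transmit prolactin signals, Stat5a was called and Stat5b was not. Stat5a read 9.33, 9.55 and 9.38 in fetal cells and 11.31, 10.95 and 11.21 in adult basal cells. Every adult basal array was thus above every fetal array, and the log2 fold change was -1.73 (SE 0.13, limma, Holm-adjusted p = 0.047), 3.33-fold. This call lay close to the threshold. It was lost without any 1 array other than adult basal replicate 2 (adjusted p from 0.31 to 0.65) and with slide as a block (0.26), whereas the direction was the same within the first slide (-1.93) and the second (-1.48).

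Stat5b was near equal in both populations by both of its probes. The probe with the higher mean read 11.08, 11.35 and 11.10 in fetal and 11.31, 11.40 and 11.41 in adult basal cells. These values overlapped, with a log2 fold change of -0.20 (95% interval -0.46 to 0.07), and of -0.28 and -0.18 within the slides. The other probe gave -0.31 (95% interval -0.57 to -0.04, limma, Holm-adjusted p = 1) and its arrays did not overlap. The within-array difference of Stat5a minus Stat5b was -1.75 ± 0.04 (SD, n = 3) on the fetal and -0.22 ± 0.23 (SD, n = 3) on the adult arrays, a shift of -1.54 (exact permutation test, 2-sided p = 0.1, the smallest possible). Stat5a and Stat5b are near-identical paralogs, and cross-hybridization between their probes was not tested.

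Grhl2, the grainyhead factor of epithelial junctions, was detected well in both populations and was not called. The probe with the higher mean read 11.83, 11.66 and 11.80 in fetal and 11.41, 11.02 and 11.37 in adult basal cells. The arrays did not overlap, but the log2 fold change was only 0.49 (95% interval 0.18 to 0.81) and below the 2-fold limit, with 0.43 and 0.71 within the slides. The other probe gave 0.22 (95% interval -0.19 to 0.64), with overlapping arrays.

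Tfap2c and Runx1 had the higher signal in adult basal cells on every array but were not called. Tfap2c, also known as AP-2 gamma, read 13.98, 13.86 and 14.03 in fetal and 15.52, 14.63 and 15.91 in adult basal cells. Adult basal replicate 2 was the lowest of the adult basal arrays. The log2 fold change was -1.40 (SE 0.30, Holm-adjusted p = 1, Benjamini-Hochberg-adjusted p = 0.0050, both from limma), with -1.74 within the first slide and -0.68 within the second, where adult basal replicate 2 was the lone adult array.

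Runx1 was measured by 2 probes with different transcript accessions. The probe with the higher mean read 11.49, 11.10 and 11.02 in fetal and 12.68, 13.14 and 13.14 in adult basal cells. The other read 11.65, 11.33 and 11.42 in fetal and 12.41, 12.92 and 12.68 in adult basal cells. Neither probe had overlapping populations, and the log2 fold changes were -1.79 (SE 0.18, Holm-adjusted p = 0.34, Benjamini-Hochberg-adjusted p = 1.1e-04, both from limma) and -1.20 (SE 0.16, Holm-adjusted p = 1, Benjamini-Hochberg-adjusted p = 4.2e-04). The first probe differed by -1.42 within the first slide and by -2.09 within the second.

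**Figure D2:**
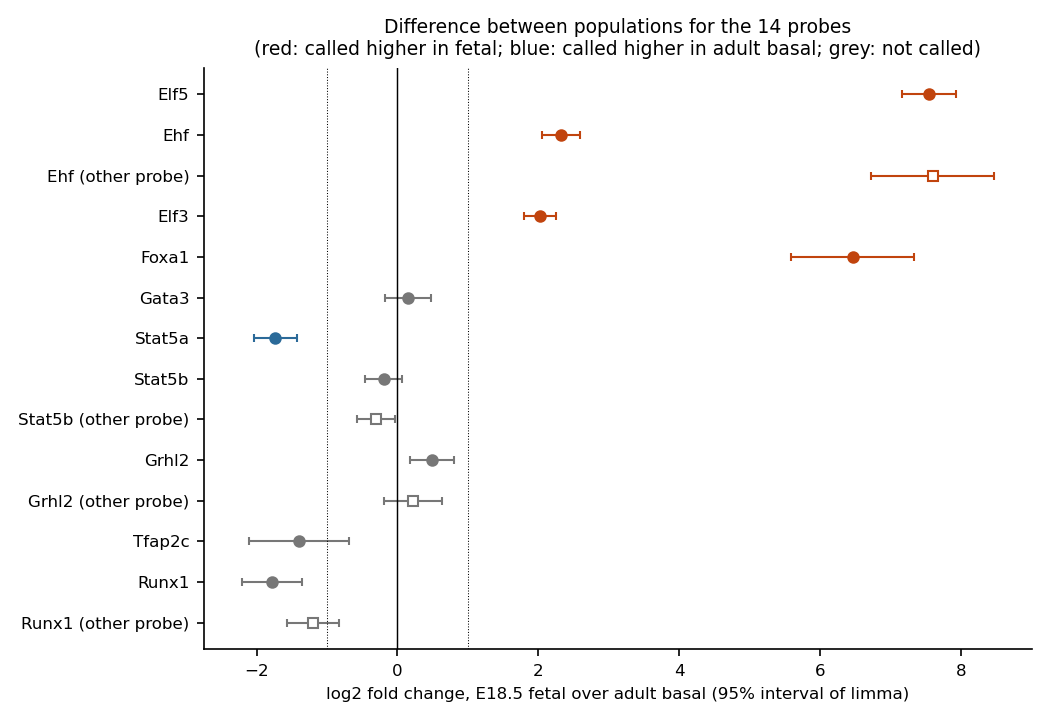
Log2 fold change of E18.5 fetal over adult basal cells (horizontal axis) for the 14 probes, with 95% intervals of limma's fit; circles are the main probes and squares the other probes, and dotted lines mark 2-fold. The Elf5, Foxa1 and second Ehf probes lie at 6.46 or above, and Stat5a is the single probe called in the adult basal direction.

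Genes known to work with or downstream of these factors were followed in 4 lists, together 73 genes of which 65 were tested. Of these, 19 were called towards fetal cells and 3 towards adult basal cells. Over all genes tested these shares were 6.03% and 5.21%, which are also the values to set beside the counts of each list below. With Benjamini-Hochberg adjustment, 31 and 12 of the 65 were called, against 15.8% and 13.9% of all genes. The median log2 fold change of the 65 genes was 0.95, compared with -0.04 over all genes. Leaving out 1 array at a time gave 9 to 16 Holm calls towards fetal and 0 to 4 towards adult basal cells. The lists were chosen with earlier results of these arrays known.

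In the prolactin-STAT5 list, 2 of 18 genes tested were called towards fetal cells and 0 towards adult basal cells. At an unadjusted p below 0.05 in limma's test, 7 were higher in fetal and 5 in adult basal cells. Benjamini-Hochberg adjustment gave 6 calls towards fetal and 3 towards adult basal cells. The median log2 fold change was 0.15. The cell cycle gene Ccnd1 averaged 14.82 ± 0.0050 (SD, n = 3) on the fetal and 8.23 ± 0.41 (SD, n = 3) on the adult arrays, a log2 fold change of 6.59 (limma, Holm-adjusted p = 7.9e-05), and the growth factor Igf2 had a log2 fold change of 2.11 (0.0061). Among the signalling components, the prolactin receptor Prlr (log2 fold change -0.35) and the kinase Jak2 (0.13) were not called. The STAT5-induced feedback inhibitors Cish (1.32, Holm-adjusted p = 0.20) and Socs2 (1.30, 0.11) had values opposite in sign to that of Stat5a and were also not called. The brightest genes of the list that were not called were the kinase Akt1 (0.55), the inhibitor Socs3 (-0.32) and Stat3 (-0.61). The receptor gene Erbb4 and the cytokine gene Tnfsf11 did not reach well above background in any sample.

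In the list of alveolar and milk genes, 5 of 16 were called towards fetal cells and 2 towards adult basal cells, with a median log2 fold change of 0.12. Benjamini-Hochberg adjustment gave 6 calls towards fetal and 4 towards adult basal cells. At an unadjusted p below 0.05 in limma's test, 7 were higher in fetal and 6 in adult basal cells. The summed log2 signal was 17.20, 17.11 and 17.12 in fetal and 18.27, 17.87 and 18.06 in adult basal cells, Lcn2 having the highest mean. The 5 genes called towards fetal cells with Holm's adjustment were 4 casein genes and the folate receptor Folr1 (log2 fold change 2.88). The casein gene Csn1s2b (0.32) was not called. Csn1s1 had a log2 fold change of 7.80, and Csn2 was at least 13.7-fold, Csn3 at least 7.85-fold and Csn1s2a at least 7.39-fold higher, as these 3 did not reach well above background in any adult basal sample. The bound compares the fetal mean with the mean, over the adult arrays, of the probe's own value or the lowest signal well above background, whichever was higher. In the other direction were Glycam1, at least 22.3-fold higher in adult basal cells, and the lipid droplet gene Plin2 (log2 fold change -1.72). The brightest uncalled genes were the lipocalin Lcn2 (-1.56) and the milk fat globule genes Mfge8 (-0.44) and Btn1a1 (-0.87). The whey protein gene Wap did not pass the filter on low signal.

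In the list of hormone-sensing luminal genes, 5 of 13 were called towards fetal cells and 0 towards adult basal cells, with a median log2 fold change of 2.13. At an unadjusted p below 0.05 in limma's test, 9 were higher in fetal and 4 in adult basal cells. Benjamini-Hochberg adjustment gave 8 calls towards fetal and 3 towards adult basal cells. The 5 genes called with Holm's adjustment were the transcription factor genes Myb (4.44) and Spdef (3.82), Cited4 (2.99), Prom1 (2.30) and the progesterone receptor Pgr (2.13). Prom1 was also among the luminal markers called above. Esr1, the estrogen receptor that works with Foxa1 and Gata3, was well above background on 1 of 3 fetal arrays and on all adult basal arrays. Its log2 signal was 3.80, 3.57 and 2.67 in fetal and 7.07, 6.38 and 7.35 in adult basal cells (limma, Holm-adjusted p = 0.25), so the arrays did not overlap, but the fetal level and the size of the difference were not measured well. Xbp1, a factor of secretory cells (-1.70), the T-box factor Tbx3 (1.13) and the estrogen-responsive gene Greb1 (-0.36) were also not called.

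In the list of epithelial genes linked to Grhl2, 7 of 18 were called towards fetal cells and 1 towards adult basal cells, with a median log2 fold change of 1.48. The claudins Cldn7 (4.60), Cldn3 (4.39) and Cldn4 (2.65), the serine protease Tmprss2 (2.54), the small GTPase Rab25 (2.50), the tricellular junction gene Marveld2 (2.43) and Epcam (1.88), whose product was used in the sort, were higher in fetal cells. The repressor gene Zeb1 was higher in adult basal cells (-2.55, a size that rests on dim fetal signal). Zeb1 was well above background in 1 of 3 fetal samples. Not called were Cdh1 (log2 fold change 0.76), which encodes E-cadherin, the splicing factor Esrp1 (-0.09) and the zinc-finger factor Ovol2 (-0.22).

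Other members of the factors' own gene families were tested to see how far the differences ran beyond the 10 genes. Of 20 other ETS genes tested, 4 were called towards fetal cells and 0 towards adult basal cells. At an unadjusted p below 0.05 in limma's test, 8 were higher in fetal and 6 in adult basal cells. Benjamini-Hochberg adjustment gave 5 calls towards fetal and 3 towards adult basal cells, against 15.8% and 13.9% of all genes. The 4 genes called with Holm's adjustment were Spdef (3.82), already counted in the hormone-sensing list, Etv5 (2.41), Etv1 (2.39) and Etv6 (1.85). The brightest ETS genes that were not called were Elk1, whose means in the populations were nearly equal, Ets2 (-1.23) and Erf (0.52), and the median of the 20 genes was 0.12. Among 20 other FOXA, GATA, STAT, GRHL, AP-2 and RUNX genes and their cofactors, 2 were called higher in fetal cells, Grhl3 (4.59) and Stat4 (2.50), and 1 higher in adult basal cells, Stat2 (-2.51), with a median of -0.10. Grhl3, a relative of Grhl2, averaged 11.87 ± 0.10 (SD, n = 3) on the fetal and 7.28 ± 0.19 (SD, n = 3) on the adult arrays (limma, Holm-adjusted p = 5.0e-05). The RUNX partner Cbfb (0.63), the corepressor Tle2 (0.42) and the AP-2 gene Tfap2a (-0.81) were not called.

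**Figure D3:**
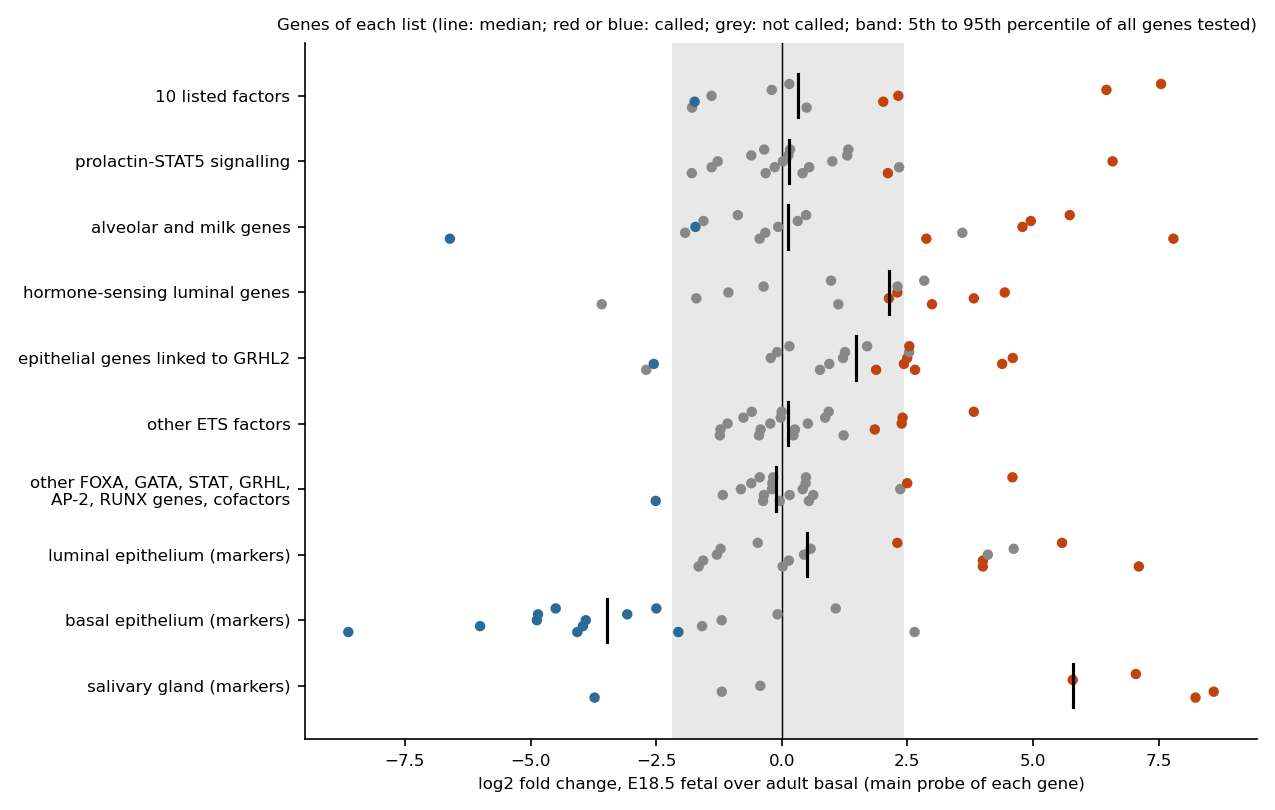
Log2 fold change of E18.5 fetal over adult basal cells (horizontal axis) for the main probe of each gene, by list; red and blue points were called higher in fetal and adult basal cells, grey points were not called, black lines are medians and the grey band spans the 5th (-2.17) to 95th (2.42) percentile of all genes tested. Foxa1 (6.46) and Elf5 (7.55) lie far outside the band, and the other 8 listed genes lie within it.

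Markers of other cell types moved with the same contrast. Of 7 salivary gland markers tested, 4 were called higher in fetal cells (Dcpp1 8.60, well above background in 2 of 3 adult basal samples, Smr3a at least 69.0-fold, Dcpp2 7.05 and Aqp5 5.79, of which Dcpp1 and Dcpp2 are close copies whose probes may share signal) and 1, Bhlha15, higher in adult basal cells (-3.73), while Amy1 (-1.19) and Bpifa2 (-0.43) were not called. Their summed signal was 14.57, 14.70 and 14.73 on the log2 scale in fetal and 11.54, 11.82 and 11.51 in adult basal cells, the water channel gene Aqp5 having the highest mean over the 6 arrays, and Smgc did not reach well above background in any sample. Fibroblast markers had the opposite direction, with 2 of 9 called higher in adult basal cells (Pdgfrb -4.34 and Dcn -3.78), 4 with Benjamini-Hochberg adjustment and 8 at an unadjusted p below 0.05, and summed signals of 12.43, 12.50 and 12.80 in fetal and 13.99, 14.19 and 14.71 in adult basal cells, Col1a2 having the highest mean over the 6 arrays and Dcn that over the adult basal arrays, while the gene of BP-1, Enpep, did not rise well above background in either population. Leukocyte markers were called in 0 of 12 cases (0 and 5 at an unadjusted p below 0.05 towards fetal and adult basal cells, 0 and 4 called with Benjamini-Hochberg adjustment). The summed signal of the leukocyte list was 15.26, 15.01 and 14.92 in fetal and 14.91, 15.28 and 15.16 in adult basal cells, where a few bright probes weigh most, such as that of Itgam (log2 fold change 0.24). The other 11 leukocyte markers had negative values, with a median of -0.40 over the 12, and those called with Benjamini-Hochberg adjustment were Cd52 (-4.39, well above background in 2 of 3 fetal samples), Tyrobp (-2.80), Lyz2 (-1.76) and Coro1a (-1.50). Both populations had been depleted of CD45 and Ter119, and Runx1, which blood cells also express, had a value of the same sign. The part of such cells in the differences of Elf5, Ehf, Elf3, Foxa1, Stat5a, Tfap2c and Runx1 was not tested.

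**Figure D4:**
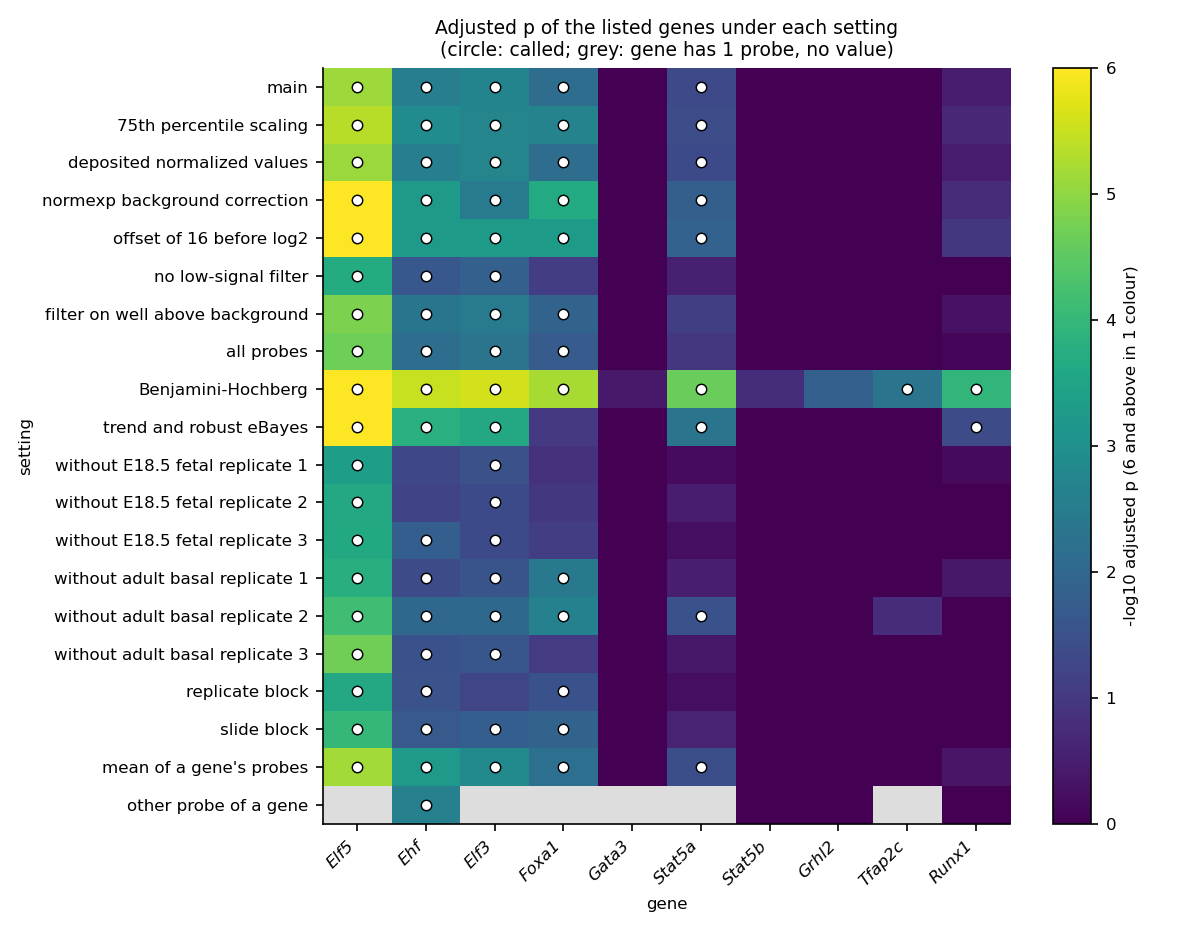
Adjusted p of the 10 listed genes (columns, main probe) under the setting of the report and 19 alternatives (rows), as -log10 in color, where values of 6 and above share 1 color; circles mark calls and grey cells genes with a single probe. Elf5 was called in every row with a value, and Gata3, Stat5b and Grhl2 in none.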

How the data were processed

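The RNA samples, 3 fetal (E18.5) and 3 adult basal, were labelled with Cy3 and hybridized to 1-color Agilent mouse arrays. The authors processed the scans with Feature Extraction 11.0.1.1; the deposited intensity is background-subtracted and not normalized between arrays. A second deposited table holds log2 values that the authors quantile normalized.

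Control spots and spots marked as outliers (104 to 326 per array) were dropped, replicate spots were averaged as log2 values, and quantile normalization was applied over the 6 arrays. Accessions were matched without versions to RefSeq (GRCm38.p6; the design names another build). Of 55681 probes, 48.9% matched a gene. Probes below the boundary of the lowest of 3 k-means clusters (100 starts; log2 signal 5.949) in both populations were removed. This follows the study's k-means filter, but with 1 boundary from the pooled population means of the matched probes, so the probes kept are not those of the study. limma 3.58.1 (R 4.3.3) was fitted to the other 20448 with Holm adjustment; figures used Python 3.11.15 and matplotlib 3.10.9. The fit was tested on simulated data. The study's methods name a whole-transcript labelling kit and the labels the Low Input Quick Amp kit, and which was used here is unsettled. Intervals and adjusted p values come from limma.

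Precision is limited by the number of arrays. Per array, 76.4% to 83.3% of probes were marked by the scanner software as well above background, and no spot was saturated. Each slide held both populations: the first fetal replicate 1 and adult basal replicates 1 and 3, the second the other arrays. Adult basal replicate 2 correlated least with its group (r across probes 0.981 and 0.983, against 0.990 for the other pair). The labels call the samples biological replicates.

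The members, gene lists and tests were chosen with earlier results of these arrays known. Named were all listed genes, up to 4 called genes per direction with the largest change in each list, and up to 3 uncalled genes with the brightest probes; further genes were named after their values were seen. Alternatives covered normalization, background, filter, probes, adjustment, variance model, replicate block, slide and left-out arrays; the use of a gene's other probe was added after seeing the data.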

Additional observations from a re-analysis of the deposited data

How the results depend on the processing

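Every direction of the 10 listed genes was kept under all alternatives, and 162 of the 184 values stayed on the same side of the call, 19 lost it and 3 gained it (Tfap2c and Runx1 with Benjamini-Hochberg adjustment, and Runx1 with a variance trend and robust estimation). The Elf5 log2 fold change was lowest, 6.10, after the normexp correction, and the Ehf value was 4.96 with the mean of its probes. The cause of these changes was not tested, except that Benjamini-Hochberg adjustment is less strict by construction and a left-out array leaves fewer samples.

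The 4 calls towards fetal cells became 2 to 4, and the 1 call towards adult basal cells 0 to 1, with each array left out; 3 or 4 of the 10 genes had an unadjusted p below 0.05 towards adult basal cells in each of these fits of limma. The call of Stat5a was lost, leaving 0, without a low-signal filter, with the filter on probes well above background, with all probes and with slide as a block (3 at an unadjusted p below 0.05 each time), whereas the adult basal count rose to 2 with a variance trend and 3 with Benjamini-Hochberg adjustment. The fetal count was 3, as Foxa1 was lost, without a low-signal filter and with a variance trend. Of the pathway genes, 9 to 16 were called towards fetal and 0 to 4 towards adult basal cells with each array left out, 12 towards fetal cells without a low-signal filter, 31 and 12 with Benjamini-Hochberg adjustment, and 5 towards adult basal cells with a variance trend. The count of all probes, 2270, became 1182 without a low-signal filter, 6133 with Benjamini-Hochberg adjustment and 948 to 1949 with each array left out, lowest without fetal replicate 1.

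The replicate numbers are shared between the populations, but deviations of same-numbered samples correlated at -0.03, 0.09 and 0.05, so the numbers were not taken as pairs. With replicate number as a block, 1302 probes, 3 listed genes towards fetal and 0 towards adult basal cells (3 at an unadjusted p below 0.05) and 1 pathway gene towards adult basal cells were called, and the Holm-adjusted p of Elf3 from limma rose to 0.057. Not every sample correlated best with its own number.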

Other observations

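Among the 15265 other genes measured well above background throughout, those whose profile over the 6 arrays lay nearest to that of Elf5, by root mean square distance of log2 values centered on their own mean, were Fbp1 (0.24), a gluconeogenic enzyme, Csn1s1 (0.32), a casein, and Aldh1a3 (0.33), a retinaldehyde dehydrogenase. Fbp1 read 13.97 ± 0.11 (SD, n = 3) in fetal cells. All 3 genes were higher on every fetal array than on any adult basal array, which follows from choosing them by closeness to Elf5 on these arrays.

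The remaining marker lists gave few calls, and their part in the differences above was not tested. Summed log2 signals were 11.88, 11.63 and 11.56 in fetal and 11.44, 11.71 and 11.57 in adult basal cells for epidermis, 13.81, 13.67 and 13.88 against 13.81, 13.88 and 13.69 for endothelium, and 10.61, 11.43 and 11.27 against 10.34, 11.02 and 10.28 for erythroid cells. The probes with the highest mean over the 6 arrays were those of Sbsn (log2 fold change -1.51), Kdr (-0.04) and Slc4a1 (0.14), respectively, and weigh most in these sums. Of 9 epidermal markers tested, 1 was called higher in fetal cells, the keratin Krt10 (log2 fold change 1.47), and 0 higher in adult basal cells, with a median log2 fold change of 0.87. At an unadjusted p below 0.05 in limma's test, 6 epidermal markers were higher in fetal and 1 higher in adult basal cells. With Benjamini-Hochberg adjustment, 4 were called towards fetal cells, namely Krtdap (4.11, well above background in 2 of 3 adult basal samples), Calm4 (3.47), Krt1 (1.95) and Krt10, and 1, Sbsn, towards adult basal cells. Endothelial markers were called in 0 of 8 cases and erythroid markers in 0 of 3; at an unadjusted p below 0.05 in limma's test, 5 endothelial markers were lower and 1 higher in fetal cells, and 1 erythroid marker, Hbb-bt, was higher in fetal cells, and with Benjamini-Hochberg adjustment 5 endothelial markers were called towards adult basal and 1 erythroid marker towards fetal cells. The 5 were Esam (-3.77, well above background in 1 of 3 fetal samples), Cdh5 (-2.70), Emcn (-1.79), Vwf (-1.56) and Cldn5 (-1.40), and the median of the 8 endothelial markers was -1.48.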
